A study of Rattus norvegicus with 8 samples.

Results

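The genes described here carry out the storage of neutral lipid in droplets, its breakdown and the uptake of fatty acids, and were chosen by symbol as Plin1, Plin2, Plin4, Cidec, Lipe, Pnpla2, Lpl, Fabp4, Cd36 and G0s2. Of these 10 symbols, 8 had a row among the 15590 genes of the deposited table, and Pnpla2 and Cd36 were not analysed here. The 8 RNA libraries came from the right Achilles tendons of wild-type Sprague-Dawley rats, which the methods of the study give as male and 8 to 10 weeks old. Rats of the 0 h p.r. (post-run) group, with 4 libraries, were killed immediately after 1 h of uphill treadmill running, and those of the naïve control group (NC), also with 4 libraries, kept their normal activity and did not run. According to those methods the control rats of the treadmill experiment were killed with a later group. A label says instead that both groups were killed immediately, while the sample titles say so of the 0 h p.r. group alone. If the methods hold, running and the time of killing cannot be told apart. The comparison asks which transcripts of the tendon differ at the end of a single run.

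Fat cells keep triglyceride in droplets whose surface is covered by perilipins. Lipolysis removes the fatty acids one after another, first by the lipase encoded by Pnpla2, then by hormone-sensitive lipase (Lipe) and monoglyceride lipase (Mgll), and is switched on by catecholamines through cyclic AMP. Lipoprotein lipase (Lpl) releases fatty acids from circulating lipoproteins at the capillary wall, and Cd36 and fatty acid binding proteins carry them into and through the cell. Fat cells lie around the tendon and between its fascicles, so whole tendon tissue can hold their RNA.

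Values are FPKM (fragments per kilobase of transcript, scaled between libraries), and log2 fold changes (0 h p.r. minus NC) were fitted with limma on log2(FPKM + 0.5), with Benjamini-Hochberg adjustment over the 13863 genes tested. Genes with an adjusted p under 0.05 whose fold reached 2 were called lower or higher. The libraries held 10660131 to 17464752 recovered reads, and mitochondrial transcripts made up 31.1% of the FPKM of NC replicate 2 against 16.3% to 21.9% of the others. The labels number the libraries of a group as replicates without naming the rat behind each, so p-values measure the spread between these 8 libraries, which may be technical in part.

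All 8 genes were lower in the 0 h p.r. group, and 4 of them were called: Cidec, Plin4, Lpl and G0s2. Over all tested genes 0.894% were called lower and 1.8% higher. In 7 of the 8 genes, all but Plin2, every 0 h p.r. library lay below every NC library, which held for 7.47% of all tested genes. The median log2 fold change of the 8 genes was -1.28, against -0.0014 for all tested genes. Each of the 8 genes was above the filter on low values in every library and had at least 120 recovered reads in each. Because the tissue was sequenced in bulk, fewer fat cells and less of these RNAs per fat cell cannot be told apart.

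Lists of markers for the cells that a tendon sample can hold were read in the same libraries. A reference list of 13 other adipocyte genes, among them Adipoq (adiponectin) and Lep (leptin), was lower with the set: 7 of the 13 were called lower, none higher, and their summed FPKM was 1427 to 3662 in NC and 575 to 1182 in 0 h p.r. libraries. That count was 2 to 10 with 1 library left out (2 without 0 h p.r. replicate 2 or 3, 3 without 0 h p.r. replicate 1 or NC replicate 1, 2 or 3, 7 without NC replicate 4, 10 without 0 h p.r. replicate 4), and 0 with a replicate block or without the muscle-rich 0 h p.r. replicates 1 and 3, with 11 genes lower at an unadjusted p under 0.05 in each of the fits named. The sum over 12 skeletal muscle markers spread far more among the 0 h p.r. libraries, from 1323 in replicate 4 to 18957 in replicate 3 and 42510 in replicate 1, than in NC (5768 to 9845). Replicates 1 and 3 are called muscle-rich for this sum alone, to which Acta1, Ckm and the fast-fibre gene Mylpf add most in these libraries. The slow-fibre genes Myh7 and Tnnt1 were lowest in replicate 3, at 0.51 FPKM (61.1 to 329 in NC) and 1.52 FPKM (328 to 576 in NC), and the mean log2(FPKM + 0.5) of the list was 8.54 in that library, within the 7.62 to 8.91 of NC, against 10.6 in replicate 1. Bone and cartilage markers summed to 135 to 527 FPKM after the run and to 19.4 to 137 in NC. None of the muscle genes, the 8 tested bone and cartilage genes, the 9 endothelial, 11 macrophage, 3 brown adipocyte and 3 erythroid genes was called in the limma fit to all 8 libraries. Counts at an unadjusted p under 0.05 are read against all tested genes, of which 11.2% were lower and 11.4% higher at that threshold. By this measure 6 of 8 bone and cartilage genes were higher, of which Phex passed the filter on low values only through the post-run libraries, where it was high, so that its difference follows in part from the filter. In the muscle list 2 of 12 genes were lower and 0 higher, but without 0 h p.r. replicate 4 the list had 1 lower and 8 higher, where 13.6% of all tested genes were higher. Of the brown adipocyte genes 1 of 3 was lower. The endothelial list had 1 of 9 genes in each direction and the macrophage list 1 of 11, near the share of all genes, and the erythroid list had 0. Some genes of these lists were called in other fits. Lower calls made up 0.274%, 0.289% and 0.209% of all tested genes without 0 h p.r. replicate 2, without replicate 3 and without the muscle-rich libraries. For the other alternative fits named in this paragraph, and for higher calls in any of them, that share is not given. Bone or cartilage genes called higher numbered 1 with voom on the recovered reads, with a pseudocount of 0.1, without 0 h p.r. replicate 3 or without NC replicate 4, and 2 without the muscle-rich libraries. Called lower were Tnnt1 of the muscle list without the muscle-rich libraries, Cd163 of the macrophage list with array weights or without 0 h p.r. replicate 4, and Cidea of the brown adipocyte list without 0 h p.r. replicate 4 or NC replicate 3. Tendon markers were led by Dcn and Col1a1 in both groups and reached down to Mkx, at means of 9.78 FPKM in NC and 8.51 FPKM in 0 h p.r. libraries. Of these 10 genes 1, the immediate-early gene Egr1, was called higher. Ucp1, Elovl3, Cox7a1, Dio2 and Zic1 of the brown adipocyte list were not analysed here. The part of muscle, bone and cartilage RNA in the results on lipid genes was not tested, except that the fit without the muscle-rich 0 h p.r. replicates 1 and 3, chosen after seeing the data, kept all 8 fold changes negative and called 0 of the genes. That fit called 0.209% of all tested genes lower, and 7 of the 8 genes had an unadjusted p under 0.05, as did 7.78% of all tested genes in the lower direction.

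**Figure D1:**
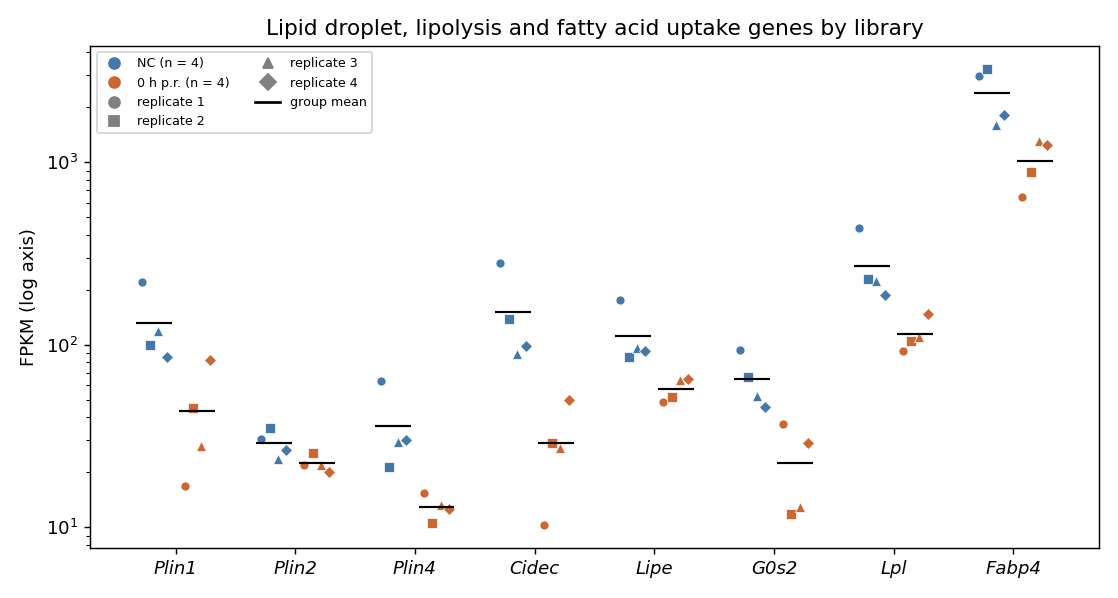
FPKM of each gene (log axis) in the 4 NC (blue) and 4 0 h p.r. (orange) libraries; marker shapes give the replicate number and black lines the group means. The 0 h p.r. libraries lie below the NC libraries in every gene except Plin2, and NC replicate 1 is the highest library in 6 of the 8 genes.

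The promoters of 3 genes called lower and of Plin2, the gene with the smallest difference, are shown so that the start regions of differing members can be compared. They are the 250 bases before the first listed RefSeq start, on the build GRCr8, which is not the build that the reads were aligned to. All 4 lie on the minus strand and are written 5′ to 3′, with matches to the searched motifs in capitals.
Cidec, chr4:148137116-148137365, minus strand: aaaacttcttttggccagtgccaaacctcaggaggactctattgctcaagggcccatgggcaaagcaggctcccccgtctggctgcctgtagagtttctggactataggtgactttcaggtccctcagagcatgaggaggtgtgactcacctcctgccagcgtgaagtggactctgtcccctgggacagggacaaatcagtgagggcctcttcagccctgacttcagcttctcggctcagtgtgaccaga
Plin4, chr9:1025250-1025499, minus strand: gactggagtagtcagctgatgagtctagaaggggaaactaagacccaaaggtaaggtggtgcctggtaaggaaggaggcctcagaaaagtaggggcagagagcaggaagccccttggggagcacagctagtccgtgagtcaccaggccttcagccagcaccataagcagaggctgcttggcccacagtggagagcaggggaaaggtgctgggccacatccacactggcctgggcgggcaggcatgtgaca
G0s2, chr13:107335949-107336198, minus strand: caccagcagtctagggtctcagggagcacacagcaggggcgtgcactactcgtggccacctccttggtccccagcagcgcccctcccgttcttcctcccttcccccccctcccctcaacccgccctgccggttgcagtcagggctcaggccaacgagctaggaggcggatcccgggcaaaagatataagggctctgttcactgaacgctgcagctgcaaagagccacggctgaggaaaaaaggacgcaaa
Plin2, chr5:106229019-106229268, minus strand: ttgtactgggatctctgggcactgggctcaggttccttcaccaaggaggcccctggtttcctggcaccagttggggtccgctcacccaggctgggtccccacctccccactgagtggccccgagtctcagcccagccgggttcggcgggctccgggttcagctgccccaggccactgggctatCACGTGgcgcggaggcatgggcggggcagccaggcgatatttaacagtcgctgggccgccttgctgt

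RefSeq promoters were matched for 7 of the 10 symbols (Plin1, Plin2, Plin4, Cidec, G0s2, Pnpla2 and Cd36). The motifs, searched on both strands from 250 bases before to 50 bases after the start, were AGGTCA (the core bound by nuclear receptors), direct repeat 1 (that core repeated after any 1 base, bound by PPAR and RXR), TGACGTCA (the cyclic AMP response element), CACGTG (the E-box), ACGTG (the core of the hypoxia response element, contained in the E-box), the promoter box CCAAT, the TATA box spelled as TATAAA, and the glucocorticoid receptor motif. In the windows of Cidec, Plin4 and Pnpla2 none of these letters was found, at any listed start of Plin4. The Plin2 window had a CACGTG, 67 bases before the start, which 6.65% of 27457 rat genes also have at their first listed start. G0s2 had an AGGTCA on the reverse strand 23 bases past the start, outside the stretch printed, and 15.7% of all genes have one. Plin1 had a CCAAT on the reverse strand 207 bases before the start, like 37.7% of all genes. The same motif lay on the reverse strand 32 bases past the other listed start of Plin2. Cd36 had a TATAAA on the reverse strand 175 bases before the start, as 14.3% of all genes have in their windows, and an ACGTG on that strand 226 bases before it, which 19.7% have. Direct repeat 1 was in none of the 7 genes' windows and in 0.0583% of all. These matches describe the letters of the windows alone.

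Plin1 (ENSRNOG00000015086) encodes the perilipin of large fat cell droplets, which holds back lipolysis until it is phosphorylated. NC replicates 1 to 4 had 219, 99.4, 119 and 85.9 FPKM, and 0 h p.r. replicates 1 to 4 had 16.9, 44.9, 27.8 and 82.7 FPKM. The groups did not overlap, but 0 h p.r. replicate 4 lay just under the lowest control. The log2 fold change was -1.73 (SE 0.47), with a limma adjusted p of 0.0640, and the gene was not called. With single libraries left out it ranged from -1.37 without 0 h p.r. replicate 1 (limma adjusted p 0.116) to -2.12 without 0 h p.r. replicate 4 (limma adjusted p 0.0169), and only the last of these fits passed. Without the muscle-rich replicates 1 and 3 it was -1.0 (limma adjusted p 0.282).

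Plin4 (ENSRNOG00000047046), a perilipin of newly forming droplets in fat cells, was lower in the 0 h p.r. group. It stood at 63.2, 21.4, 29.4 and 30.1 FPKM in the NC libraries and at 15.3, 10.5, 13.2 and 12.6 FPKM in the 0 h p.r. libraries. The 4 post-run values lay close together, with a coefficient of variation of 15.3% against 51.4% in NC, where replicate 1 was the highest. It had a log2 fold change of -1.34 (SE 0.29) and a limma adjusted p of 0.0340.

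Plin2 (ENSRNOG00000007060) coats droplets in many cell types besides fat cells. The controls had 30.6, 34.8, 23.6 and 26.6 FPKM and the post-run libraries 22.0, 25.7, 21.9 and 20.1 FPKM. It was the one gene of the set whose groups overlapped, since 0 h p.r. replicate 2 was above NC replicate 3. Its log2 fold change was -0.35 (SE 0.14), with a limma adjusted p of 0.185.

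Cidec (ENSRNOG00000009153), whose product joins small droplets into the single large droplet of the white fat cell, had the largest difference of the set. In NC it was at 280, 138, 89.0 and 98.7 FPKM, and in 0 h p.r. at 10.3, 28.9, 27.1 and 49.6 FPKM. Every post-run library was below the lowest control, and replicate 1, the library with the highest sum of muscle markers, was the lowest of all. The group means were 152 ± 88.3 and 29.0 ± 16.1 FPKM (SD, n = 4 each). The log2 fold change was -2.41 (SE 0.49), with a limma adjusted p of 0.0270, and leaving out the muscle-rich replicates 1 and 3 gave -1.83.

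Lipe (ENSRNOG00000020546) encodes hormone-sensitive lipase, which cleaves diglycerides. It measured 176, 85.6, 95.8 and 92.1 FPKM in the NC libraries and 48.3, 51.8, 63.7 and 64.9 FPKM after the run. NC replicate 1 was far above the other controls, which lay within 85.6 to 95.8 FPKM, and the groups did not overlap. For Lipe the log2 fold change was -0.91 (SE 0.23), under the fold of 2, with a limma adjusted p of 0.0520.

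G0s2 (ENSRNOG00000006019) encodes the small protein that inhibits the triglyceride lipase of Pnpla2, and it was lower after the run. The controls had 93.4, 66.3, 52.5 and 45.8 FPKM and the post-run libraries 36.6, 11.8, 12.8 and 28.8 FPKM. Post-run replicates 2 and 3 were lower than replicates 1 and 4, and all 4 were below the controls. The log2 fold change was -1.61 (SE 0.38), with a limma adjusted p of 0.0441.

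Lpl (ENSRNOG00000012181), for lipoprotein lipase, stood at 436, 231, 224 and 188 FPKM in NC and at 92.4, 105, 110 and 148 FPKM in 0 h p.r. libraries. The groups did not overlap. Its log2 fold change was -1.18 (SE 0.26), with a limma adjusted p of 0.0370. Leaving out NC replicate 1, the highest control, gave a log2 fold change of -0.93, below the fold of 2, with a limma adjusted p of 0.0525.

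Fabp4 (ENSRNOG00000010805), the fatty acid binding protein of fat cells, which capillary endothelium and macrophages also make, had the highest FPKM of the set. It was at 2958, 3252, 1607 and 1811 FPKM in NC and at 643, 882, 1311 and 1248 FPKM in 0 h p.r. libraries. The groups did not overlap, and the lowest control and the highest post-run library were 1607 and 1311 FPKM. The log2 fold change was -1.23 (SE 0.34), with a limma adjusted p of 0.0678, so the gene was not called in this fit. It was called lower with quantile normalization, voom and array weights (limma adjusted p 0.0464, 0.0467 and 0.0359). No fit with 1 library left out called it (limma adjusted p 0.0634 to 0.184). The 9 endothelial markers summed to 599 to 716 FPKM in NC and to 588 to 776 FPKM after the run, and the 11 macrophage markers to 461 to 890 and to 570 to 1273 FPKM. Lyz2 made up the largest part of the macrophage sum, at 187 to 473 FPKM in NC and 277 to 736 FPKM after the run. The median log2 fold change of the macrophage list was -0.09, with 7 of its 11 genes negative.

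The calls within the set depended on single libraries. With each of the 8 libraries left out in turn, the number of genes called ranged from 0, without 0 h p.r. replicate 2 or replicate 3, to 5, without 0 h p.r. replicate 4. In the fit that called 5, the adipocyte reference list had 10 of 13 genes called lower, and the share of all tested genes is not given. The fits without 0 h p.r. replicate 2 or replicate 3 called 0.274% and 0.289% of all tested genes lower. In them 8 and 7 genes of the set had an unadjusted p under 0.05, against 8.89% and 8.65% of all tested genes in the lower direction. Cidec lost its call in 4 of these 8 fits (limma adjusted p up to 0.0785), Plin4 in 5 (up to 0.108), Lpl in 6 (up to 0.111) and G0s2 in 6 (up to 0.120). No fold change turned positive in any of them.

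**Figure D2:**
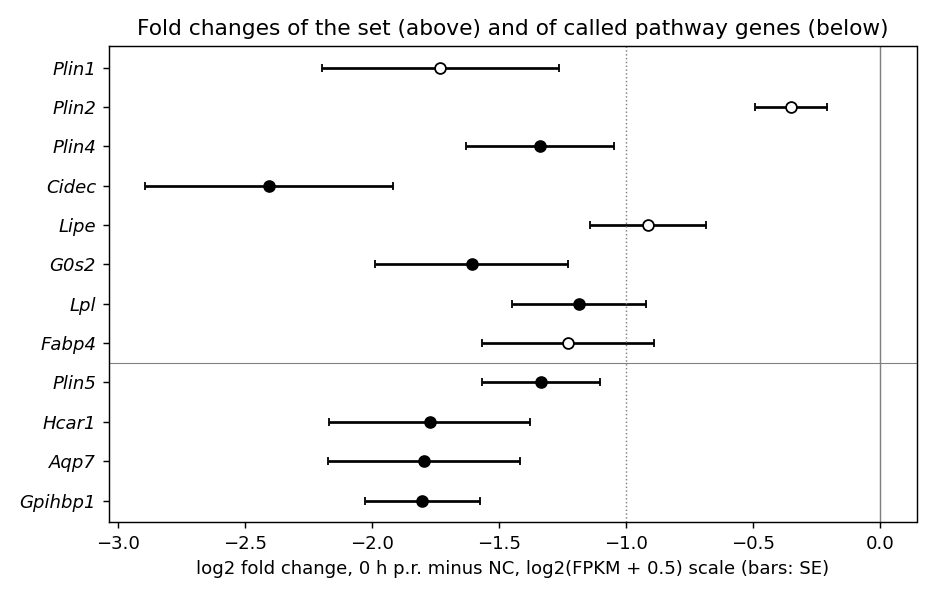
Log2 fold change (0 h p.r. minus NC, points) with its standard error (bars) for the 8 genes of the set, above the line, and the 4 called genes of the wider pathway lists, below it; filled points passed both thresholds and the dotted line marks a fold of 2. The 8 estimates of the set are negative, from -2.41 for Cidec to -0.35 for Plin2. The 4 genes below the line are shown because they were called, all of them lower, so their sign follows from that choice.

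The order of the genes by FPKM was led by Fabp4 and Lpl in every library. Fabp4 averaged 2407 ± 819 FPKM in the controls and 1021 ± 315 FPKM after the run (SD, n = 4 each), above Lpl at 270 ± 112 and 114 ± 24.1 FPKM. Lpl in turn exceeded Cidec in all 8 libraries. The next ranks changed with the group. Cidec was above Plin1 in 3 of 4 NC libraries and below it in all 4 0 h p.r. libraries. Plin1 was above Lipe in 3 NC libraries and in 1 post-run library, so neither was higher throughout a group. Lipe was above G0s2 in 8 of 8 libraries. Plin2 was above Plin4 in 1 NC library and in all 4 post-run libraries.

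The 8 genes did not vary as 1 block. In FPKM, NC replicate 1 was the highest control for 6 genes, and NC replicate 2 for Plin2 and Fabp4. The FPKM values of NC replicate 2 summed to 900138, against 554130 to 746030 in the other libraries. Fabp4 had 35073 of 15885368 recovered reads in NC replicate 1 and 21484 of 10660131 in NC replicate 2, and Plin2 had 1011 and 642. As a share of recovered reads both genes were thus higher in NC replicate 1, so their exception rests on the scaling of FPKM. Among the 0 h p.r. libraries, replicate 1 was the lowest for Plin1, Cidec, Lipe, Lpl and Fabp4 but the highest for Plin4 and G0s2. Replicate 4 was the highest for Plin1, Cidec, Lipe and Lpl. Likeness of profiles was measured as the root mean square difference, over the 8 libraries, of log2(FPKM + 0.5) centred on each gene's mean. Lipe and Lpl were the closest pair (0.198) and Plin2 and Cidec the farthest (1.24), and Lpl was nearest to the mean of the 8 genes (0.107). All of these points share their libraries and the difference between the groups.

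**Figure D3:**
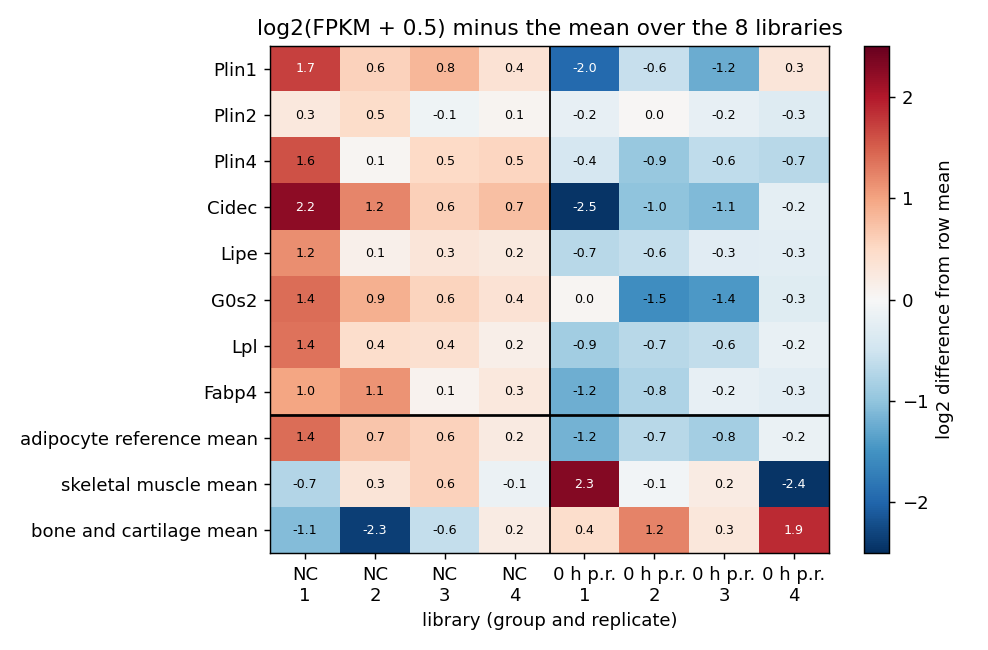
Log2(FPKM + 0.5) of each gene of the set and the mean of that quantity over 3 marker lists, less the row's mean over the 8 libraries, by library; red is above and blue below the row mean. The 8 genes and the adipocyte reference are mostly above their means in NC and below after the run, with G0s2 at its mean in 0 h p.r. replicate 1, and skeletal muscle is highest in that library.

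Outside the set, the 8 genes whose profiles were most like its mean, among 8954 tested genes with a mean of at least 5 FPKM, were Ptger3, Mmd, Cyp4b1, Ramp1, Trarg1, Acss3, Agpat2 and Prr32. Their root mean square differences from the mean profile were 0.141 to 0.207, against a median of 0.802 over these genes. Ptger3 encodes a prostaglandin E2 receptor, and averaged 8.93 ± 4.5 FPKM in the controls against 2.66 ± 0.94 FPKM after the run (SD, n = 4 each). Trarg1, which takes part in glucose transporter traffic in fat cells, went from 111 ± 43.7 to 37.8 ± 11.9 FPKM and is on the adipocyte reference list. Agpat2, an enzyme of triglyceride synthesis, had a log2 fold change of -1.19 with a limma adjusted p of 0.0668 and was the 1 of the 8 that was not called lower. The likeness was measured on the same libraries, so that these calls follow in part from the choice.

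Each gene was also set against the adipocyte reference list of the same library, as log2(FPKM + 0.5) less the mean of that quantity over the 13 reference genes. The list mean itself was 5.86 ± 0.49 in the controls and 4.42 ± 0.43 after the run (SD, n = 4 each). An exact permutation test of the difference of the group means, two-sided over 70 assignments, was made for each of the 8 genes. The smallest p it can give is 0.0286, and the p-values are not adjusted for the 8 tests.

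Relative to the reference list Cidec was still lower after the run. Its level was 1.6, 1.29, 0.77 and 1.26 log2 units above the list mean in NC, and -0.52, 0.43, 0.49 and 0.66 in 0 h p.r. libraries. These groups did not overlap, and the difference was -0.96 (exact permutation p = 0.0286). Lpl was higher relative to the list, at 2.23, 2.03, 2.1 and 2.19 in NC and 2.58, 2.27, 2.5 and 2.23 after the run. Its difference was 0.26 (exact permutation p = 0.0286), and the highest control and the lowest post-run library were both at 2.23. Plin2 differed by 1.09 (exact permutation p = 0.0571) and Lipe by 0.53 (exact permutation p = 0.0571), both higher relative to the list. Plin1 differed by -0.29, Plin4 by 0.11, Fabp4 by 0.21 and G0s2 by -0.17, with exact permutation p-values of 0.371 to 0.83. With 1 library left out, Plin1 ranged from -0.08 without 0 h p.r. replicate 1 to -0.49 without 0 h p.r. replicate 4, and Fabp4 from 0.03 without 0 h p.r. replicate 3 to 0.39 without NC replicate 2. For G0s2 single post-run libraries set the value: the difference was -0.61 without replicate 1 (exact permutation p = 0.0286) and 0.09 without replicate 2 (exact permutation p = 0.914). That of Plin4 changed sign as well, to -0.13 without 0 h p.r. replicate 1 and -0.09 without NC replicate 2. With 1 library left out, the difference of Cidec was -1.11 to -0.70 and had an exact permutation p under 0.05 in 4 of 8 cases, and that of Lpl was 0.20 to 0.31 and had one in 2 of 8.

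These relative values moved with the reference. Against Adipoq alone the difference of Cidec was -0.72 (exact permutation p = 0.0571) and that of Lpl 0.51 (exact permutation p = 0.114). That of G0s2 turned to 0.08 against Adipoq. Against it Plin1 differed by -0.04, Plin4 by 0.35, Fabp4 by 0.46, Plin2 by 1.34 and Lipe by 0.78. Slc2a4 and Gpd1 of the list are also expressed in muscle and had log2 fold changes of -0.17 and -0.22. In a version of the list without them, made after seeing the data, Cidec differed by -0.74 and Lpl by 0.49 (exact permutation p = 0.0286 for each). With that version Plin1 differed by -0.06, Plin4 by 0.33, Fabp4 by 0.44, G0s2 by 0.06, Plin2 by 1.32 and Lipe by 0.76. Set against Plin2, a comparison also added after seeing the data, Cidec differed by -2.05, G0s2 by -1.26 and Fabp4 by -0.88 on the log2 scale, with no overlap between the groups (exact permutation p = 0.0286 for each of these 3 of 7 genes). Plin2 had the smallest fall of the set, so lower values against it follow in part from that choice, and no conclusion is drawn from them.

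**Figure D4:**
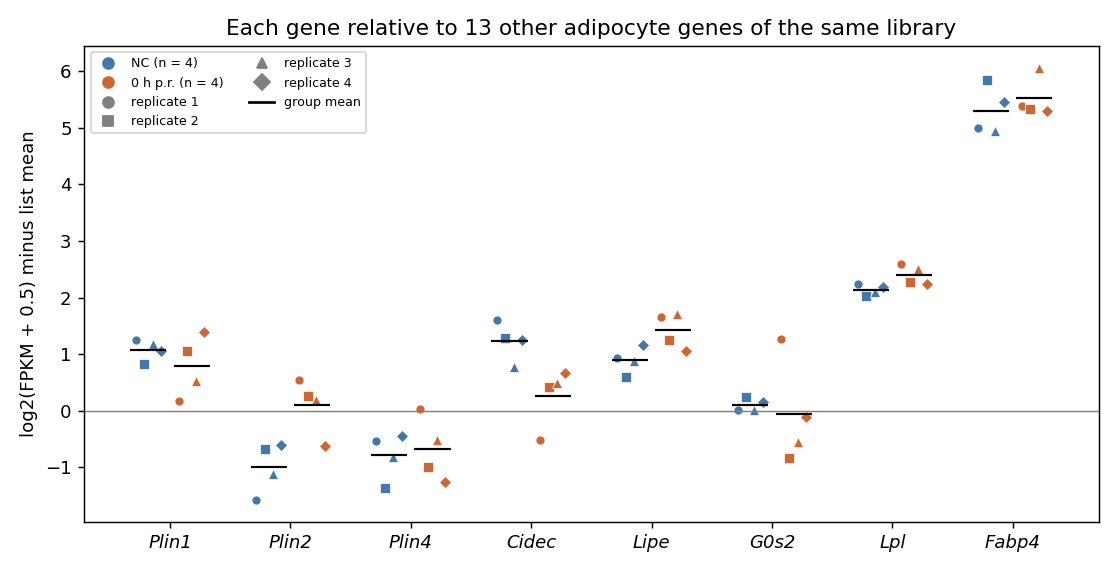
Level of each gene relative to 13 adipocyte reference genes (log2(FPKM + 0.5) less the list mean) in NC (blue) and 0 h p.r. (orange) libraries, with marker shapes for replicates and black lines for group means. Cidec lies lower and Lpl higher in all 0 h p.r. libraries than in NC, and the groups overlap for the other 6 genes.

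Genes around these steps were taken from 3 further lists, on droplet coat and growth, on lipolysis and its control, and on fatty acid uptake and handling. Of 59 genes listed 52 had a row and 51 were tested. By limma 4 were called lower (Plin5, Hcar1, Aqp7 and Gpihbp1) and 0 higher, against 0.894% and 1.8% of all tested genes. With voom on the recovered reads the same 4 were called. Plin5 passed the filter on low values only through the NC libraries, where it was high, so its call follows in part from the filter, and it is among the 4, 19, 8 and 15 lower genes counted for these lists; among the 46 genes with a mean of at least 2 FPKM, without Plin5, the other 3 were called. The number called lower was 8 with array weights, 1 to 6 with 1 library left out (1 without 0 h p.r. replicate 2 or 3, 6 without 0 h p.r. replicate 4), 1 with a replicate block (Gpihbp1), and 2 without the muscle-rich 0 h p.r. replicates 1 and 3 (Fabp3 and Gpihbp1). Without 0 h p.r. replicate 2, without replicate 3 and without the muscle-rich replicates, 0.274%, 0.289% and 0.209% of all tested genes were called lower. That share is not given for the other alternative fits. At an unadjusted p under 0.05 there were 19 lower and 5 higher of 51, where 11.2% and 11.4% of all tested genes were. The median log2 fold change of the 51 genes was -0.34, and 34 of them were negative, as were 50.1% of all tested genes. At an adjusted p under 0.05 and any fold 8 were lower and 1 higher, against 2.23% and 3.49% of all tested genes. In 15 genes all post-run libraries lay below all controls, and in 3 all lay above them, where 7.47% and 8.15% of all tested genes did.

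Of the 15 tested genes of droplet coat and growth, 1 was called lower, against 0.894% of all tested genes, with a list median of -0.38. Plin5, a perilipin of tissues that burn fat, was low in both groups, at 0.81, 1.93, 0.81 and 1.25 FPKM in NC and 0.27, 0.09, 0.12 and 0.14 FPKM after the run. These values rest on 23 to 37 recovered reads in NC and 3 to 7 in 0 h p.r. libraries, so counting error is large. All 4 post-run values were under the filter of 0.5 FPKM, which the gene passed through the controls alone, and a fit with no filter called it as well. Its log2 fold change was -1.33 (SE 0.23), with a limma adjusted p of 0.0154, on a scale that understates the change of low genes. The call was lost in 2 of the 8 fits that left out 1 library (limma adjusted p up to 0.0582), and with a pseudocount of 1 the log2 fold change was -0.90, under the fold of 2. Fitm2, which acts in droplet budding, fell from 11.1 ± 3.63 to 5.53 ± 0.71 FPKM (SD, n = 4 each; limma adjusted p 0.0441), Cidea, a relative of Cidec, had a limma adjusted p of 0.0477 and Cavin2, of caveolae, one of 0.0414, all at a fold under 2. With 1 library left out, Fitm2 and Cidea each missed an adjusted p of 0.05 in 6 of 8 fits and Cavin2 in 7. Dgat2, the enzyme that completes triglyceride, had means of 37.6 ± 26.0 and 15.4 ± 5.19 FPKM and was not called, with a limma adjusted p of 0.168. Plin3 had a log2 fold change of -0.23 (limma adjusted p 0.353).

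In the list of lipolysis and its control, 2 of 19 tested genes were called lower, against 0.894% of all tested genes, with a list median of -0.30. Hcar1, the lactate receptor that restrains lipolysis in fat cells, was at 4.96, 5.20, 8.03 and 6.12 FPKM in NC and 0.53, 1.40, 0.99 and 3.91 FPKM after the run. Its log2 fold change was -1.77 (SE 0.40), with a limma adjusted p of 0.0368. Aqp7, the channel by which glycerol leaves fat cells, was at 68.3, 55.9, 40.4 and 34.8 FPKM in NC and 7.42, 14.8, 10.5 and 28.3 FPKM after the run. It had a log2 fold change of -1.80 (SE 0.38), with a limma adjusted p of 0.0309. Both had their highest post-run value in replicate 4, as did Plin1 and Cidec, and both lost the call in most fits that left out 1 library, Hcar1 in 7 and Aqp7 in 6 of 8.

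Mgll, the lipase of the last step, fell from 96.5 ± 23.5 to 52.2 ± 7.69 FPKM (SD, n = 4 each; limma adjusted p 0.0323) at a log2 fold change of -0.86, and missed that threshold in 5 of 8 fits with 1 library left out (limma adjusted p up to 0.104). Abhd5, the activator of the Pnpla2 lipase, was at 22.5 ± 2.84 and 23.1 ± 2.58 FPKM (limma adjusted p 0.908). Adra2a, a receptor that lowers cyclic AMP, had all post-run libraries above all controls, at a log2 fold change of 0.43 (limma adjusted p 0.106). The fat cell receptor Adrb3 was at 1.3 ± 0.70 and 0.73 ± 0.46 FPKM (limma adjusted p 0.413). The uncalled genes named here from any of the 3 lists were chosen after their values were seen.

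Of fatty acid uptake and handling, 1 of 18 tested genes was called lower, against 0.894% of all tested genes. The list median was -0.02, which ranged from -0.13 without NC replicate 3 to 0.07 without NC replicate 2 when 1 library was left out. Gpihbp1, the capillary protein that brings lipoprotein lipase to the vessel lumen, was at 54.1, 48.5, 27.3 and 33.4 FPKM in NC and 8.35, 12.3, 11.9 and 11.6 FPKM after the run. The lowest control was above the highest post-run library by more than the range of the post-run values. Its log2 fold change was -1.80 (SE 0.23), with a limma adjusted p of 0.0042, and it kept the call in all 8 fits that left out 1 library (limma adjusted p 0.00409 to 0.0163). Among the 9 endothelial markers the median log2 fold change was -0.04. Acsl4, an acyl-CoA synthetase that prefers arachidonic acid, rose from 5.84 ± 0.62 to 9.77 ± 1.87 FPKM (SD, n = 4 each; limma adjusted p 0.0391) at a log2 fold change of 0.68, and was the 1 gene of the wider lists with an adjusted p under 0.05 in that direction. It missed this threshold in 7 of the 8 fits with 1 library left out (limma adjusted p up to 0.122), with a replicate block (0.133) and without the muscle-rich replicates 1 and 3 (0.188). Acsl1, the form of fat cells, had a log2 fold change of -1.15 (limma adjusted p 0.0678), with 0 h p.r. libraries below all controls. Angptl4, an inhibitor of lipoprotein lipase, was at 44.0 ± 11.1 and 42.8 ± 16.8 FPKM (limma adjusted p 0.892).

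**Figure D5:**
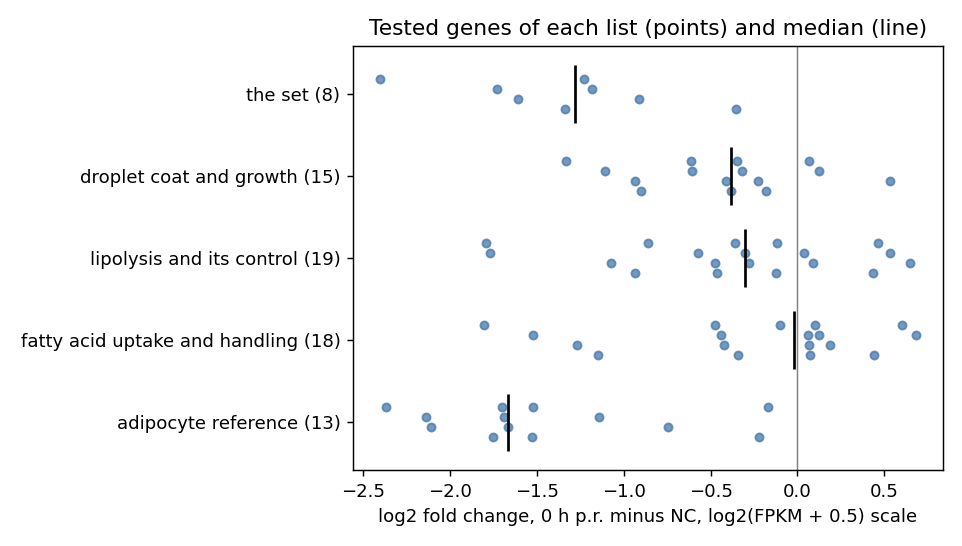
Log2 fold change (0 h p.r. minus NC) of every tested gene of the set, the 3 wider pathway lists and the adipocyte reference list, with black lines at the medians. The medians are -1.28 for the set and -1.67 for the adipocyte reference, and -0.38, -0.30 and -0.02 for droplet coat, lipolysis and uptake.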

How the data were processed

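According to the labels and methods, polyadenylated RNA was sequenced from stranded libraries, aligned with HISAT2 2.1.0 to the rat build Rnor_6.0 and counted per gene with featureCounts 1.6.3. The authors deposited FPKM values for 8 libraries and, from DESeq2 1.30.1, log2 fold changes and p-values, which were not used here. Libraries were grouped by the sample titles. Whole reads were recovered from the steps of the FPKM values for 15589 of 15590 genes (99.99%, tolerance 0.02 reads) and gave the depth; 10660131 to 17464752 reads per library limit the precision of low genes. Genes with at least 0.5 FPKM in 4 libraries were tested on log2(FPKM + 0.5) with limma 3.58.1 in R 4.3.3 (eBayes with a trend, no covariate, two-sided). The fit was also run on simulated reads, drawn independently for each gene with the same spread beyond counting error for all genes. That simulation lacks the variation that genes of a tissue share between these libraries, so no conclusion is drawn from it. The members and lists were chosen with earlier results of these data known. Named were all members, called genes of the wider lists, the 8 genes most like the member mean and, chosen after their values were seen, some uncalled genes of the wider and marker lists. Alternatives were other pseudocounts, filters, scalings, array weights, a replicate block, voom on recovered reads and left-out libraries. Promoters came from RefSeq (GRCr8).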

Additional observations from a re-analysis of the deposited data

Results flagged for a closer look

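In 3 of 32 groups of 4 values tested (each gene of the set in each group, in FPKM and relative to the adipocyte reference list) 1 library lay apart from the others, by the gap to its neighbour as a share of the group's range; chance does this in about 1 in 20 groups. Lipe in NC had replicate 1 at 176 FPKM, a gap of 0.886 of the range. Lpl in NC had replicate 1 at 436 FPKM, a gap of 0.830. Fabp4 relative to the adipocyte reference list in 0 h p.r. had replicate 3 at 6.06 log2 units, a gap of 0.904.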

How the results depend on the processing

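The number of genes of the set called lower was 4, and the number with an adjusted p under 0.05 at any fold was also 4. Both counts were 4 with a pseudocount of 0.1 or 1, no filter, a mean of at least 2 FPKM or median-ratio scaling, and 5 with quantile normalization; voom, added after seeing the data, gave 5 and 6. Array weights gave 7 for both counts, and also called 10 of the 13 adipocyte reference genes lower, against 7 without weights. Among the alternatives, the share of all tested genes called lower is given only without 0 h p.r. replicate 2, replicate 3 or the muscle-rich replicates. The counts of all other alternatives are not set against such a share, and no conclusion is drawn from them. The fit without the muscle-rich 0 h p.r. replicates 1 and 3 gave 0 for both counts. Leaving out 1 library at a time gave 0 to 5 for both. Fewer libraries enter these fits; otherwise the cause was not tested. With the replicate number as a replicate block 1 gene, Plin4, was called (1 at any fold); the labels do not say that the numbers pair rats, and the deviations of same-numbered libraries correlated at -0.14, -0.07, 0.07 and 0.01, so they were not taken as pairs. No log2 fold change of the 8 genes changed sign in any of 18 alternatives. Relative to adipocyte genes, G0s2 and Plin4 changed sign with single libraries left out. The difference of Lpl moved from 0.26 to 0.51 with Adipoq alone and to 0.49 without Slc2a4 and Gpd1. With those references Plin1 moved from -0.29 to -0.04 and -0.06, Plin4 from 0.11 to 0.35 and 0.33, and Fabp4 from 0.21 to 0.46 and 0.44. G0s2 turned from -0.17 to 0.08 and 0.06. Among the called genes of the set and the wider pathway lists, depth limits Plin5 most, at 3 reads in its lowest library.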
